A study of Gossypium barbadense with 48 samples.

Results

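The comparison described here is that of PimaS-7 cotton fibers at 25 days post anthesis (DPA) with PimaS-7 fibers at 20 DPA, with 3 RNA-seq libraries at each stage, or 6 of the 48 libraries in the series. The members were chosen by the cultivar and age in the sample labels, and no measured value was used. PimaS-7 and 5917 are Gossypium barbadense (Sea Island cotton) cultivars and the parents of a mapping population, and each was sequenced every 5 days, 8 stages in all, the first at 0 DPA and the last at 35 DPA, with no treatment named in the labels. The samples were ovules at 0 DPA and fibers at the later stages, and the sources speak of 3 biological replicates without saying whether these came from separate plants, so the p-values measure the spread between these libraries, which may be technical. The question is which genes differ across the window in which fiber elongation gives way to thickening of the secondary wall, though the thickness of the wall was not measured here.

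A cotton fiber is a single cell of the seed coat epidermis. It first elongates, with a thin primary wall and a cuticle, and then deposits a thick secondary wall that is nearly pure cellulose. Cellulose is made at the plasma membrane by cellulose synthase complexes that use UDP-glucose and move along cortical microtubules, so the arrangement of microtubules sets the winding of the microfibrils, on which fiber strength depends. In other plants the switch to secondary walls is driven by NAC and MYB transcription factors. In bulk RNA fewer cells of a type and less RNA per cell cannot be told apart.

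The total count per library ranged from 30160670 to 32663255 at 25 DPA and from 31715429 to 32862407 at 20 DPA. Across 44475 genes, Pearson's r of log2(FPKM + 1), where FPKM is fragments scaled for gene length and depth, was 0.9465 to 0.9654 between the 25 DPA libraries, 0.9694 to 0.9755 between the 20 DPA libraries and 0.8728 to 0.903 between stages. The lowest r within a stage was that of replicates 1 and 2 at 25 DPA. List counts that differed without replicate 2 at 25 DPA are given in both forms. Names come from the study's tables and cover 3 intervals, on chromosomes D03, D08 and D11 of the HAU v2.0 genome build. They reach 1550 genes in the files, 1089 of which were tested, so a list below holds the named genes of these intervals and not a whole family. Positions below are on that build, and exon structure was not analysed here.

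At 25 DPA 2824 genes were higher and 3613 lower than at 20 DPA, out of 45549 tested, which is 6.2% and 7.93% of the genes tested. These shares are the background for the counts of each list below. Calls required a log2 fold change of 1 or more in size and a p of 0.05 or less after Benjamini-Hochberg adjustment over all genes tested, in edgeR's quasi-likelihood test. The median log2 fold change was 1.85 among the higher genes and -1.81 among the lower genes, and -0.05 over all genes tested. A change of 8-fold or more was fitted for 765 higher and 729 lower genes, and of 32-fold or more for 332 and 211. No read at all was counted at 20 DPA for 76 of the higher genes and none at 25 DPA for 137 of the lower ones. On the deposited FPKM values of 38254 genes, where the median log2 fold change was -0.22 (limma on log2(FPKM + 1)) or -0.31 (on log2(FPKM + 0.1)), the split was 1259 higher and 2644 lower, or 1750 and 5383. The share of calls that were higher was thus 43.87% on counts and 32.26% or 24.53% on FPKM. Without replicate 3 at 20 DPA the number of lower genes was 2399, and without replicate 2 at 25 DPA 3158 genes were higher and 3672 lower.

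**Figure D1:**
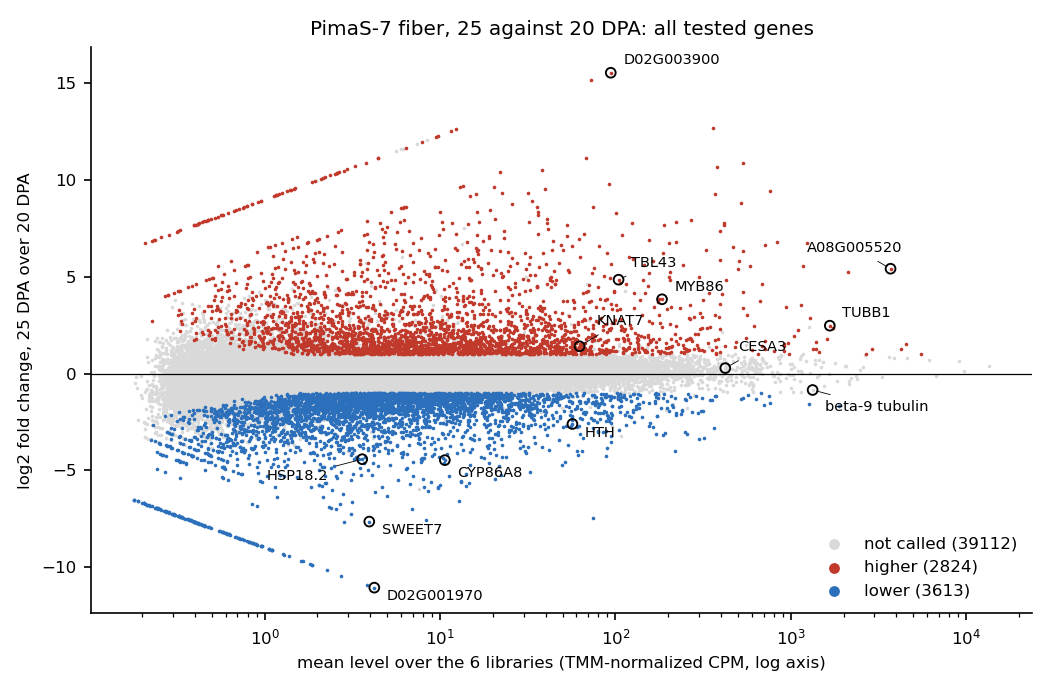
Each point is one of the 45549 genes tested, with its mean TMM-normalized CPM over the 6 PimaS-7 libraries on a log axis against its log2 fold change, 25 over 20 DPA. Genes called higher (2824) are red, called lower (3613) blue and not called (39112) gray; the straight lines of points at the upper and lower left are genes with no read at 1 of the stages, whose fitted fold change depends on the prior count.

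The genes called were spread over both subgenomes. On the A chromosomes 6.38% of the tested genes were higher and 8.34% lower, on the D chromosomes 6.27% and 8.35%. Among the 3812 tested genes that the study's assembly added to the annotation, 4.83% were higher and 3.49% lower. Fewer genes passed an FPKM of 0.5 at 25 DPA. An FPKM above 0.5 was reached by 36075, 33963 and 36189 genes in the 25 DPA libraries, against 39546, 37385 and 38243 in the 20 DPA libraries. The ranges did not overlap, and the mean difference was -2982 genes (exact two-sided permutation test, p = 0.1, the smallest that 3 against 3 libraries allow). The 10 most abundant genes took 7.12, 8.77 and 7.1% of the counts at 25 DPA, against 5.64, 6.34 and 6.61% at 20 DPA. Here too every 25 DPA library lay above every 20 DPA library, by 1.47 percentage points on average (exact two-sided permutation test, p = 0.1).

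Some regulators of secondary walls were called higher at 25 DPA, and a repressor of the phenylpropanoid pathway with few reads was called lower. Of the 5 tested members of the list, 3 were higher and 1 lower, with a median log2 fold change of 1.27 against -0.05 over all genes tested. These are 60% and 20% of the list, against 6.2% and 7.93% of all genes tested. MYB86 (Gbar_D08G013290; D08, 41848635 to 41850759), an R2R3-type MYB transcription factor, had 294, 423 and 318 CPM at 25 DPA, against 31, 28.5 and 12.9 CPM at 20 DPA. The stages were far apart, with the lowest 25 DPA library many times above the highest 20 DPA library (14.3-fold in the means; log2 fold change 3.84 ± 0.36 (SE), adjusted p = 0.00069). KNAT7 (Gbar_D08G020010; D08, 56876839 to 56882472) is a KNOX homeodomain protein that regulates secondary wall deposition in Arabidopsis stems, and it had 94, 96 and 82.6 CPM at 25 DPA, against 44.6, 29.1 and 29.1 CPM at 20 DPA. Its groups did not overlap (log2 fold change 1.41 ± 0.19 (SE), adjusted p = 0.0027). MYB61, which acts on xylem and wall formation in Arabidopsis, had 7.33, 9.64 and 9.83 CPM at 25 DPA, against 4.56, 3.19 and 3.32 CPM at 20 DPA. That was 2.42-fold higher at a low level (log2 fold change 1.27 ± 0.21 (SE), adjusted p = 0.006), and on log2(FPKM + 1) its log2 fold change of 0.67 was under the threshold.

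MYB3, a repressor of phenylpropanoid genes in Arabidopsis, was nearly absent at 25 DPA. It had 0, 0 and 0.104 CPM at 25 DPA, against 0.581, 0.84 and 1.33 CPM at 20 DPA, from 3 reads in all at 25 DPA and 96 at 20 DPA. The ratio was 25.9-fold lower, with a 95% counting interval of 8.59 to 128, and the call (adjusted p = 0.019) was lost without replicate 2 at 20 DPA (adjusted p = 0.0656) or replicate 3 at 20 DPA (adjusted p = 0.0824). MYB7, a related factor, had 0.531, 0 and 0.382 CPM at 25 DPA, against 1.6, 0.724 and 0.751 CPM at 20 DPA and was not called (log2 fold change -1.72 ± 0.94 (SE), adjusted p = 0.23).

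Of the 7 tested genes on the xylan and lignin list 2 were higher and 1 lower (median log2 fold change -0.62). These are 28.57% and 14.29% of the list, against 6.2% and 7.93% of all genes tested. Without replicate 2 at 25 DPA the counts were the same, of 8 tested, with a median log2 fold change of -0.021. TBL43 (Gbar_D08G013280; D08, 41785497 to 41789218) belongs to a family whose members add acetyl groups to wall polysaccharides such as xylan. It had 205, 197 and 203 CPM at 25 DPA, against 9.95, 6.75 and 4.28 CPM at 20 DPA. The 25 DPA libraries were nearly equal and lay 28.8-fold above the 20 DPA mean (log2 fold change 4.85 ± 0.31 (SE), adjusted p = 0.00026). TBL43 and MYB86 have consecutive identifiers and lie 59.4 kb apart. SNL6, a cinnamoyl-CoA reductase-like protein that acts in lignin synthesis in rice, had 4.81, 2.1 and 3.47 CPM at 25 DPA, against 41.1, 29.3 and 33.1 CPM at 20 DPA. It was 9.96-fold lower, with no overlap (log2 fold change -3.31 ± 0.31 (SE), adjusted p = 0.00068).

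The other lignin genes moved less clearly. CCR1, a cinnamoyl-CoA reductase on the route to lignin monomers, had 32.6, 31.1 and 34.5 CPM at 25 DPA, against 27.8, 30.9 and 27.2 CPM at 20 DPA and was not called (log2 fold change 0.19 ± 0.11 (SE), adjusted p = 0.25). Its ranges only just missed each other, and on FPKM its sign turned. A caffeic acid O-methyltransferase gene (Gbar_D08G024220) was called higher (log2 fold change 7.18 ± 1.98 (SE), adjusted p = 0.038). Its level of 55.9 CPM in replicate 1 at 25 DPA stood against 1.07 and 2.08 CPM in the other libraries of that stage, and 0.387, 0 and 0 CPM at 20 DPA. Without that replicate the adjusted p was 0.125, and without any single 20 DPA library it was 0.113 to 0.127.

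A pair of copper transporter genes rose together. Gbar_D08G020440 and Gbar_D08G020450 are both named HMA5, a copper-transporting ATPase, and lie 5.9 kb apart on D08. The first had 76.4, 72.1 and 87.3 CPM at 25 DPA, against 2.38, 1.88 and 0.404 CPM at 20 DPA. The second had 26.1, 6.9 and 8.51 CPM at 25 DPA, against 0.111, 0.203 and 0.0578 CPM at 20 DPA. In both genes every 25 DPA library was above every 20 DPA library (log2 fold change 5.65 ± 0.55 (SE), adjusted p = 0.00082 for the first; log2 fold change 6.76 ± 0.74 (SE), adjusted p = 0.0012 for the second), although near-identical neighbors can share reads.

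**Figure D2:**
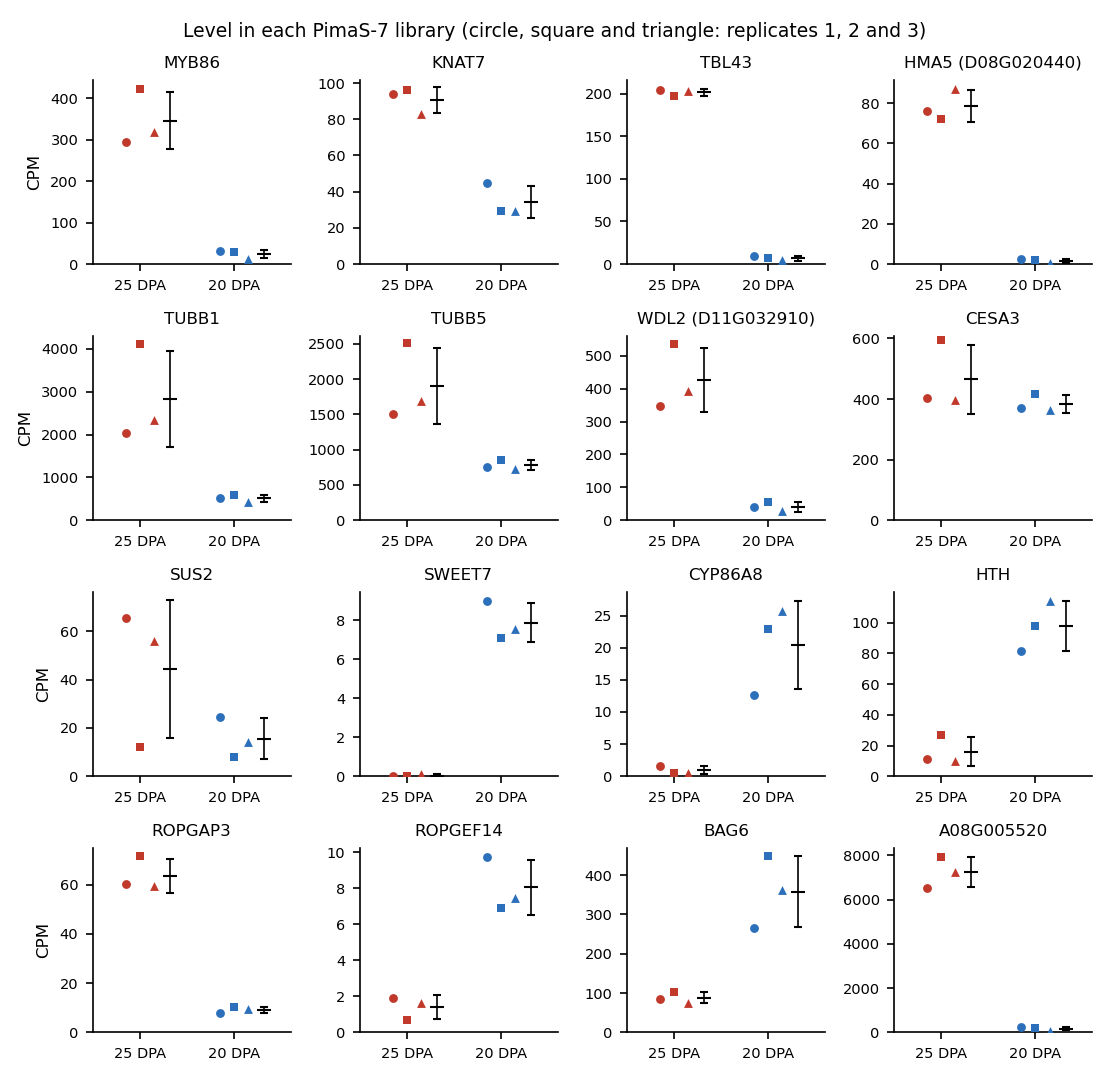
TMM-normalized CPM of 16 genes in each PimaS-7 library, 25 DPA in red on the left and 20 DPA in blue on the right; circles, squares and triangles are replicates 1, 2 and 3, and the bars are the mean and SD of 3 libraries. The stages do not overlap in any panel except those of CESA3 and SUS2.

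No cellulose synthesis gene was called higher, while the summed level of the list was 721 to 955 CPM at 25 DPA, against 617 to 706 CPM at 20 DPA. Of 8 tested, none was higher and 2 were lower, with a median log2 fold change of 0.30 in edgeR. The shares were 0% and 25%, against 6.2% and 7.93% of all genes tested. At an unadjusted p under 0.05 in edgeR 1 member was higher, and DESeq2 and limma called none higher. With replicate 2 at 25 DPA left out, 1 was higher and 1 lower. The gene then called higher was the sucrose synthase SUS2, which is on this list and also on the sugar supply list below. CESA3, a cellulose synthase subunit of primary walls, had 402, 595 and 396 CPM at 25 DPA, against 369, 416 and 363 CPM at 20 DPA. The ranges overlapped, and the difference was not called (log2 fold change 0.28 ± 0.18 (SE), adjusted p = 0.32). CSI1, which links cellulose synthase complexes to microtubules, had 257, 338 and 253 CPM at 25 DPA, against 215, 255 and 210.5 CPM at 20 DPA, also with overlap (log2 fold change 0.32 ± 0.16 (SE), adjusted p = 0.19). On FPKM the fold changes of CESA3 and CSI1 lay just below 0. CESA6, another primary wall subunit, had 9.85, 7.09 and 7.5 CPM at 25 DPA, against 13.8, 17.3 and 17.9 CPM at 20 DPA. It was called lower at the threshold itself (log2 fold change -1.004 ± 0.18 (SE), adjusted p = 0.0083), and its log2 fold change came to -0.91 without replicate 2 at 25 DPA, -0.94 without replicate 3 at 25 DPA, -0.94 without replicate 2 at 20 DPA and -0.92 without replicate 3 at 20 DPA, all of which are not called. CSLD3, a synthase-like protein needed for root hair tip growth in Arabidopsis, had 1.69, 1.07 and 0.973 CPM at 25 DPA, against 3.65, 4.98 and 3.5 CPM at 20 DPA and was lower (log2 fold change -1.69 ± 0.30 (SE), adjusted p = 0.0079). On log2(FPKM + 1) it was not past the fold threshold. The subunits typical of secondary walls are not among the named genes.

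Sugar supply genes gave 0 higher and 2 lower of 13 tested in edgeR, 0% and 15.38% against 6.2% and 7.93% of all genes tested. At an unadjusted p under 0.05 in edgeR 2 were higher, and DESeq2 and limma called none higher. Of 14 tested without replicate 2 at 25 DPA, 1 was higher and 1 lower. SWEET7, a sugar transporter of the plasma membrane, had 0, 0 and 0.104 CPM at 25 DPA, against 8.98, 7.1 and 7.54 CPM at 20 DPA. Only 3 reads were counted at 25 DPA against 831 at 20 DPA, which is 224-fold lower with a 95% counting interval of 76.4 to 1088 (adjusted p = 0.00049). SUS2, a sucrose synthase that releases UDP-glucose from sucrose, had 65.5, 12 and 55.8 CPM at 25 DPA, against 24.7, 8.08 and 14.1 CPM at 20 DPA. Replicate 2 at 25 DPA lay within the 20 DPA range, and SUS2 was not called (log2 fold change 1.51 ± 0.63 (SE), adjusted p = 0.13). Without that library it was called higher (log2 fold change 1.96, adjusted p = 0.0198). UGPA, which makes UDP-glucose from glucose-1-phosphate, had 22.1, 27.9 and 25.4 CPM at 25 DPA, against 24.2, 28.6 and 28.7 CPM at 20 DPA, with no call (log2 fold change -0.11 ± 0.14 (SE), adjusted p = 0.6).

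The microtubule list had 5 higher and 0 lower of 18 tested in edgeR, with a median log2 fold change of 0.62. At an unadjusted p under 0.05 in edgeR 3 members were lower. DESeq2 called 5 higher and 0 lower, and limma on log2(FPKM + 1) called 2 higher and 1 lower. On log2(FPKM + 0.1) limma called 2 higher and 2 lower of 16, so the direction was not one-sided on FPKM. The edgeR shares were 27.78% and 0%, against 6.2% and 7.93% of all genes tested. The summed level of the list was 5728 to 8719 CPM at 25 DPA, against 3084 to 3743 CPM at 20 DPA. That rise lay mainly in the genes TUBB1 and TUBB5, and 13 of the 18 members were not called. TUBB1 (Gbar_D08G020540; D08, 57694676 to 57697588), a beta-tubulin, had 2045, 4116 and 2330 CPM at 25 DPA, against 529, 577 and 424 CPM at 20 DPA. Replicate 2 at 25 DPA was the highest, and the other two still lay well above all 20 DPA libraries (5.55-fold in the means; log2 fold change 2.47 ± 0.29 (SE), adjusted p = 0.0016). TUBB5, another beta-tubulin (Gbar_D11G033670), had 1509, 2519 and 1695 CPM at 25 DPA, against 747, 859 and 732 CPM at 20 DPA and was 2.45-fold higher (log2 fold change 1.29 ± 0.21 (SE), adjusted p = 0.0057), while its log2 fold change on FPKM was 0.96. Another gene, described as a beta-9 tubulin (Gbar_D08G020390), had 1279, 624 and 948 CPM at 25 DPA, against 1389, 1617 and 2140 CPM at 20 DPA. Each 25 DPA library was below each 20 DPA library, without a call (log2 fold change -0.85 ± 0.28 (SE), adjusted p = 0.07), and it was called lower without replicate 1 at 25 DPA (log2 fold change -1.12, adjusted p = 0.0348). It lies 176.3 kb from TUBB1. Reads of related tubulin genes may be shared.

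The genes for microtubule-associated proteins differed in the size of their change. WDL2 (Gbar_D11G032910; D11, 64907056 to 64910444), a WAVE-DAMPENED2-like protein that binds microtubules, had 348, 535 and 394 CPM at 25 DPA, against 39.4, 54.2 and 26.7 CPM at 20 DPA. That was 10.6-fold higher with wide separation (log2 fold change 3.41 ± 0.30 (SE), adjusted p = 0.00058). Another gene named WDL2, Gbar_D08G023850 on D08, was also called higher, by less (log2 fold change 1.155). It had 3.56, 6.45 and 4.01 FPKM at 25 DPA, against 2.3, 2.5 and 2.83 FPKM at 20 DPA. CLASP, which stabilizes growing microtubule ends, had 109.6, 123 and 116 CPM at 25 DPA, against 49.9, 68.7 and 50.5 CPM at 20 DPA and was called just past the threshold (log2 fold change 1.04 ± 0.15 (SE), adjusted p = 0.0036). Without replicate 1 at 20 DPA its log2 fold change was 0.97 and without replicate 3 at 20 DPA 0.98, so the call was lost. SP1L2, a SPIRAL1-like protein, had 253, 546 and 291 CPM at 25 DPA, against 186, 162 and 216 CPM at 20 DPA. Its lowest 25 DPA library was above the highest 20 DPA library, and it missed the call (log2 fold change 0.95 ± 0.29 (SE), adjusted p = 0.056), which it made without replicate 1 at 25 DPA (log2 fold change 1.16, adjusted p = 0.0345). Without replicate 2 at 25 DPA 4 members of the list were called higher in place of 5. TUBB1, TUBB5, the WDL2 gene on D11, SP1L2 and the actin capping protein below are candidates that the study chose on these samples.

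Actin genes showed 1 higher and 0 lower of 12 tested (median log2 fold change -0.12; edgeR, with 3 lower at an unadjusted p under 0.05, 0 lower in DESeq2 and 0 or 2 in limma with the larger or smaller pseudocount). The share higher, 8.33%, lies near the 6.2% over all genes tested, of which 7.93% were lower. ACT7, an actin, had 662, 697 and 584 CPM at 25 DPA, against 578, 647 and 647 CPM at 20 DPA and did not differ beyond its spread (log2 fold change 0.05 ± 0.13 (SE), adjusted p = 0.8); its sign turned on FPKM and without replicate 2 at 25 DPA. The alpha subunit of the F-actin-capping protein had 141, 223 and 131 CPM at 25 DPA, against 126, 164 and 149.6 CPM at 20 DPA, with overlapping ranges (log2 fold change 0.17 ± 0.22 (SE), adjusted p = 0.63), and its sign turned likewise. ABIL1, a subunit of the SCAR/WAVE complex that promotes branched actin, had 46.1, 59.2 and 56.4 CPM at 25 DPA, against 25.6, 24.5 and 22.2 CPM at 20 DPA. It rose 2.24-fold (log2 fold change 1.16 ± 0.14 (SE), adjusted p = 0.0015), with a log2 fold change of 0.8 on log2(FPKM + 1), under the threshold.

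Genes of wall loosening and pectin were called in both directions. Of 3 xyloglucan and expansin genes tested 1 was higher and 0 lower, which is 33.33% higher against 6.2% of all genes tested. DESeq2 called 3 higher of 8 tested. XTH31, a xyloglucan-modifying enzyme, had 33.7, 7.59 and 30.1 CPM at 25 DPA, against 1.63, 1.88 and 1.59 CPM at 20 DPA. Replicate 2 at 25 DPA was the lowest of its stage and still above every 20 DPA library (log2 fold change 3.80 ± 0.54 (SE), adjusted p = 0.0032). XTH30, of the same family, had 19.1, 17.1 and 15.2 CPM at 25 DPA, against 9.26, 8.52 and 8.21 CPM at 20 DPA, with separate ranges and a log2 fold change just short of 1 (log2 fold change 0.98 ± 0.14 (SE), adjusted p = 0.0033). It was called higher by DESeq2 (log2 fold change 1.014, adjusted p = 1e-06), with DESeq2's size factors in edgeR (1.015, adjusted p = 0.00287), and without replicate 1 at 20 DPA (1.04) or replicate 3 at 25 DPA (1.06).

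Of 11 pectin genes 1 was higher and 2 were lower, 9.09% and 18.18% of the list against 6.2% and 7.93% of all genes tested, and without replicate 2 at 25 DPA 0 were higher and 2 lower. PAE7, a pectin acetylesterase, had 40.3, 61.4 and 44.3 CPM at 25 DPA, against 169, 75.6 and 103 CPM at 20 DPA. All 25 DPA libraries were below all 20 DPA libraries (log2 fold change -1.25 ± 0.31 (SE), adjusted p = 0.026), but the call was lost without replicate 1 at 20 DPA (adjusted p = 0.0512), replicate 3 at 20 DPA (adjusted p = 0.0585), replicate 1 at 25 DPA (adjusted p = 0.0758) or replicate 3 at 25 DPA (adjusted p = 0.0834). RALFL33, a signaling peptide of the RALF family that acts at the wall, had 48.2, 41.7 and 39.8 CPM at 25 DPA, against 13.3, 15.5 and 15.3 CPM at 20 DPA and rose 2.94-fold (log2 fold change 1.56 ± 0.13 (SE), adjusted p = 0.0005). Of the 12 transport genes for water, protons and potassium, none was higher and 1 was lower in edgeR, with 4 higher at an unadjusted p under 0.05 and none called higher by DESeq2 or limma. The share lower, 8.33%, lies near the 7.93% over all genes tested, of which 6.2% were higher. The number lower was 2 without replicate 2 at 25 DPA. The aquaporin PIP1-2 had 796, 984 and 439 CPM at 25 DPA, against 1074, 1313 and 1398 CPM at 20 DPA, lower in each 25 DPA library and not called (log2 fold change -0.77 ± 0.29 (SE), adjusted p = 0.096). Without replicate 2 at 25 DPA it was called lower (log2 fold change -1.03, adjusted p = 0.0394).

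Genes of the cuticle and of long-chain lipids were lower wherever they were called, with 0 higher and 5 lower of 13 tested and a median log2 fold change of -1.04 (edgeR; none was higher at an unadjusted p under 0.05, or in DESeq2 or limma). The shares were 0% and 38.46%, against 6.2% and 7.93% of all genes tested. The summed level of the cuticle list was 127 to 160 CPM at 25 DPA, against 273 to 327 CPM at 20 DPA. CYP86A8 (Gbar_D08G015390), a cytochrome P450 that hydroxylates the end of fatty acids for cutin, had 1.63, 0.534 and 0.556 CPM at 25 DPA, against 12.7, 22.9 and 25.7 CPM at 20 DPA. It was 22.6-fold lower (log2 fold change -4.48 ± 0.50 (SE), adjusted p = 0.0013). HTH (Gbar_D08G020060), the HOTHEAD protein needed for an intact cuticle in Arabidopsis, had 11.5, 26.8 and 9.76 CPM at 25 DPA, against 81.6, 97.6 and 114 CPM at 20 DPA. It was 6.1-fold lower, with replicate 2 the highest of the 25 DPA libraries (log2 fold change -2.61 ± 0.39 (SE), adjusted p = 0.0038).

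The other called cuticle genes were lower too. CER26L, related to proteins that extend the chains of cuticular waxes, had 12.6, 22.1 and 12.7 CPM at 25 DPA, against 47.5, 55 and 45.9 CPM at 20 DPA and was 3.13-fold lower (log2 fold change -1.65 ± 0.24 (SE), adjusted p = 0.0034). HHT1, which transfers feruloyl groups to hydroxy fatty acids of suberin and cutin, had 0.199, 0.419 and 0.729 CPM at 25 DPA, against 2.65, 3.59 and 2.69 CPM at 20 DPA, a low level at either stage (log2 fold change -2.72 ± 0.47 (SE), adjusted p = 0.0066). GPAT3, a probable glycerol-3-phosphate acyltransferase, was not called and had 1 high library, with 9.75, 0.191 and 0 CPM at 25 DPA, against 0.194, 0.608 and 0.433 CPM at 20 DPA (log2 fold change 3.01 ± 1.66 (SE), adjusted p = 0.24). PAS2, a dehydratase of very-long-chain fatty acid elongation, had 31.8, 25.3 and 26.8 CPM at 25 DPA, against 44.2, 49.2 and 54.2 CPM at 20 DPA. It did not reach the fold threshold on counts (log2 fold change -0.81 ± 0.14 (SE), adjusted p = 0.0063) and passed it on log2(FPKM + 1) (log2 fold change -1.09, adjusted p = 0.00119). Without replicate 2 at 25 DPA 4 members of the list were lower in place of 5.

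**Figure D3:**
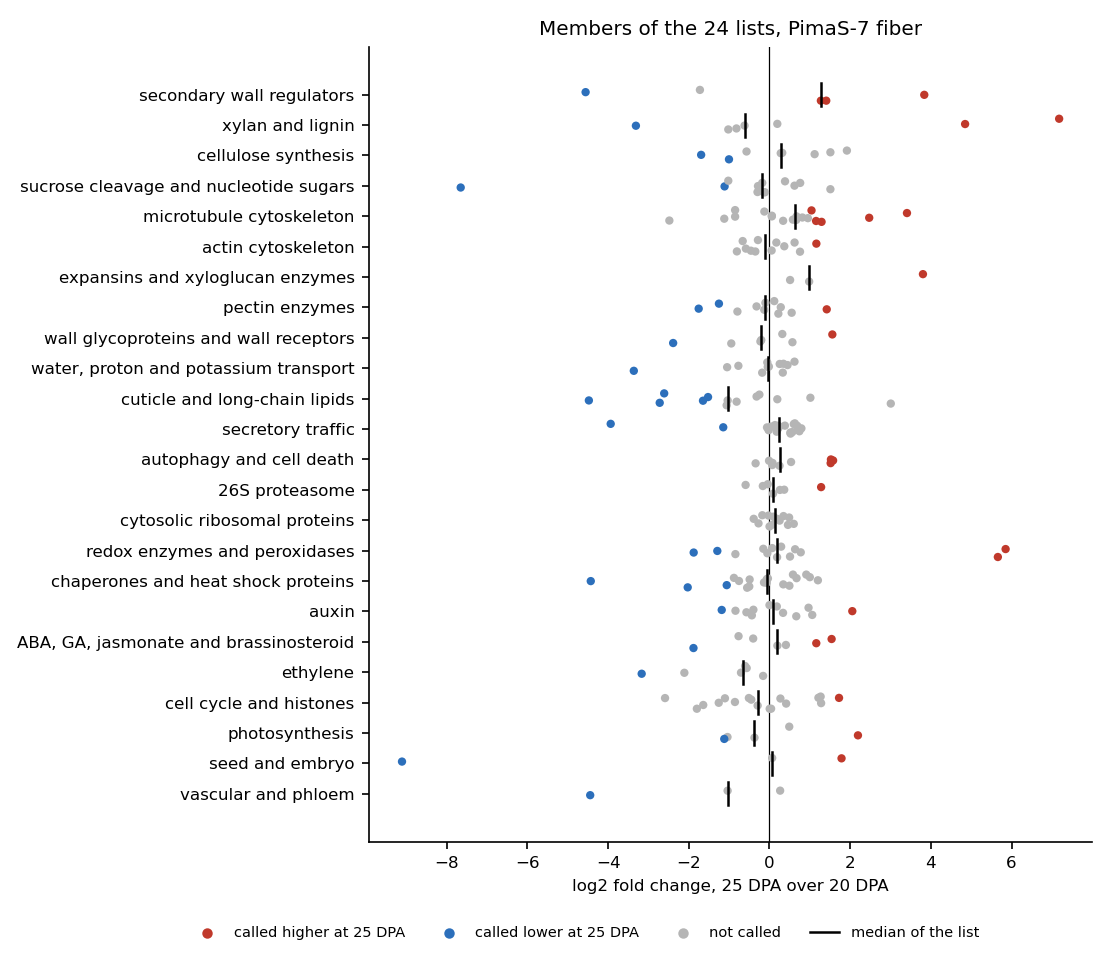
Log2 fold change, 25 over 20 DPA, of each tested member of the 24 lists (points; red called higher, blue called lower, gray not called) with the list's median (black bar). By edgeR the cuticle list has 5 members called lower and none higher, the microtubule list 5 higher and none lower, and most lists have few members called.

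ROPGAP3, ROPGEF14 and RBK2 act on Rop GTPases, the small switches that set where plant cell walls grow. They are named here for the size of their changes and not from a list of such genes. ROPGAP3 (Gbar_D08G014390), which turns Rop proteins off and shapes wall patterns in Arabidopsis xylem, had 60.1, 71.6 and 59.3 CPM at 25 DPA, against 7.96, 10.4 and 9.36 CPM at 20 DPA. It was 6.9-fold higher, with small spread at both stages (log2 fold change 2.79 ± 0.15 (SE), adjusted p = 0.00016). ROPGEF14 (Gbar_D08G016970), which turns them on, had 1.92, 0.686 and 1.63 CPM at 25 DPA, against 9.76, 6.89 and 7.48 CPM at 20 DPA and was 5.69-fold lower (log2 fold change -2.50 ± 0.37 (SE), adjusted p = 0.0037). RBK2, a kinase that binds Rop proteins, had 4.54, 2.44 and 4.24 CPM at 25 DPA, against 11.3, 13.1 and 17.2 CPM at 20 DPA and was 3.71-fold lower (log2 fold change -1.89 ± 0.28 (SE), adjusted p = 0.0035). RBK2 lies 953 bases from the autophagy gene ATG18H, which was higher.

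Signaling genes with large changes included At2g40270 (Gbar_D08G022520), an inactive receptor-like kinase. It had 176, 305 and 242 CPM at 25 DPA, against 13.1, 13.4 and 14.7 CPM at 20 DPA, almost the same in all 20 DPA libraries and 17.6-fold higher at 25 DPA (log2 fold change 4.14 ± 0.22 (SE), adjusted p = 0.00016). CML17, a calmodulin-like calcium sensor, had 53.5, 80.9 and 58.7 CPM at 25 DPA, against 10.3, 9.07 and 6.38 CPM at 20 DPA (log2 fold change 2.91 ± 0.24 (SE), adjusted p = 0.00048). SAPK3, a kinase of the SnRK2 family that acts in abscisic acid signaling, had 89.2, 96.3 and 94.2 CPM at 25 DPA, against 30.9, 37.1 and 28.2 CPM at 20 DPA and rose 2.91-fold (log2 fold change 1.54 ± 0.13 (SE), adjusted p = 0.00055).

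Among 7 genes for abscisic acid, gibberellin, jasmonate and brassinosteroid 2 were higher and 1 lower. These are 28.57% and 14.29%, against 6.2% and 7.93% of all genes tested. BRI1, the brassinosteroid receptor, had 8.43, 3.7 and 5.77 CPM at 25 DPA, against 20.5, 22.1 and 23.6 CPM at 20 DPA. It was 3.7-fold lower (log2 fold change -1.88 ± 0.28 (SE), adjusted p = 0.0038). Of these 7, 1 was higher and 1 lower without replicate 2 at 25 DPA. Auxin genes gave 1 higher and 1 lower of 12, shares of 8.33% each way that lie near the 6.2% and 7.93% over all genes tested, and without replicate 2 at 25 DPA 3 higher and 0 lower. The gene called higher with all 6 libraries was SAUR32, an auxin-responsive protein, with 25.6, 34.6 and 25.1 CPM at 25 DPA, against 6.47, 7.36 and 6.73 CPM at 20 DPA (log2 fold change 2.05 ± 0.17 (SE), adjusted p = 0.00047). SAUR32 and ROPGAP3 have consecutive identifiers on D08. Of 6 ethylene genes none was higher in edgeR, also at an unadjusted p under 0.05, and 1 was lower. The edgeR shares were 0% and 16.67%, while DESeq2 called 1 higher and 2 lower of 14. In edgeR 0 of 7 were called in either direction without replicate 2 at 25 DPA.

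Autophagy and cell death genes gave 3 higher and 0 lower of 9 tested, with a median log2 fold change of 0.25 (edgeR; none was lower at an unadjusted p under 0.05, or in DESeq2 or limma). The shares were 33.33% and 0%, against 6.2% and 7.93% of all genes tested. ATG8F, the ubiquitin-like protein that coats autophagosomes, had 24.7, 25.2 and 21 CPM at 25 DPA, against 6.69, 10.5 and 7.63 CPM at 20 DPA (log2 fold change 1.52 ± 0.19 (SE), adjusted p = 0.0021). ATG18H, which binds phosphoinositides on the growing autophagosome, had 12.4, 10.2 and 9.1 CPM at 25 DPA, against 3.43, 3.97 and 3.21 CPM at 20 DPA (log2 fold change 1.58 ± 0.18 (SE), adjusted p = 0.0014); on log2(FPKM + 1) its log2 fold change was 0.8. LOL1, a zinc finger protein that promotes cell death in Arabidopsis, had 18.4, 35.8 and 20.6 CPM at 25 DPA, against 8.21, 7.94 and 9.82 CPM at 20 DPA. The ranges were separate for each of them, and for LOL1 replicate 2 at 25 DPA was the highest (log2 fold change 1.52 ± 0.27 (SE), adjusted p = 0.0071). The proteasome list had 1 higher of 7, the RPT2A copy on D11 (Gbar_D11G024510), with 134, 121 and 124 CPM at 25 DPA, against 53.5, 55.7 and 46.6 CPM at 20 DPA (log2 fold change 1.28 ± 0.12 (SE), adjusted p = 0.00067). The RPT2A copy on D08 (Gbar_D08G021650) had 88.2, 86.8 and 76.7 CPM at 25 DPA, against 81.7, 79.8 and 75.4 CPM at 20 DPA and was not called (log2 fold change 0.09 ± 0.11 (SE), adjusted p = 0.61). On FPKM the log2 fold change of the D11 copy was 0.96 and the sign of the D08 copy turned. The shares of the proteasome list were 14.29% higher and 0% lower, against 6.2% and 7.93% of all genes tested.

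Redox genes split, with 2 higher and 2 lower of 13, 15.38% each way against 6.2% and 7.93% of all genes tested. PARB, a glutathione S-transferase, had 239, 36 and 284 CPM at 25 DPA, against 5.75, 3.13 and 2.14 CPM at 20 DPA. Replicate 2 at 25 DPA was far below the other two of its stage and still above every 20 DPA library (log2 fold change 5.66 ± 0.84 (SE), adjusted p = 0.0037). GLP10 (Gbar_D08G014260), a germin-like protein of the wall, had 22.6, 11.4 and 28.7 CPM at 25 DPA, against 0.691, 0.0869 and 0.289 CPM at 20 DPA and was barely detected at 20 DPA (log2 fold change 5.85 ± 0.64 (SE), adjusted p = 0.0012). The lower ones were GSTU17, another glutathione S-transferase, and AAO, an ascorbate oxidase of the wall. AAO had 11.1, 7.78 and 11.7 CPM at 25 DPA, against 50.6, 26.5 and 35.4 CPM at 20 DPA (log2 fold change -1.88 ± 0.27 (SE), adjusted p = 0.0033). GSTU17 had 284, 347 and 277 CPM at 25 DPA, against 402, 975 and 848 CPM at 20 DPA (log2 fold change -1.29 ± 0.31 (SE), adjusted p = 0.024). The GSTU17 call was lost without replicate 2 at 20 DPA (adjusted p = 0.0859), replicate 3 at 20 DPA (adjusted p = 0.0885), replicate 1 at 25 DPA (adjusted p = 0.0694) or replicate 3 at 25 DPA (adjusted p = 0.0804).

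Further named genes with large changes were transporters and enzymes. NPF7.3, a nitrate transporter of the NRT1 family, had 22.2, 8.69 and 26.5 CPM at 25 DPA, against 0.276, 0.348 and 0.636 CPM at 20 DPA (log2 fold change 5.50 ± 0.53 (SE), adjusted p = 0.00078). Aox1, an aldehyde oxidase, had 18.8, 36.4 and 20.9 CPM at 25 DPA, against 1.88, 1.82 and 1.01 CPM at 20 DPA and rose 16.1-fold (log2 fold change 4.01 ± 0.36 (SE), adjusted p = 0.0006). At1g54790, a GDSL-type esterase, had 61.3, 76.4 and 70.5 CPM at 25 DPA, against 16.3, 14.9 and 6.7 CPM at 20 DPA (log2 fold change 2.46 ± 0.32 (SE), adjusted p = 0.0023). The ranges of all of these were separate. Scyl2, a protein with a kinase-like domain, had 4.28, 9.42 and 5.94 CPM at 25 DPA, against 0.94, 1.16 and 0.607 CPM at 20 DPA (log2 fold change 2.85 ± 0.38 (SE), adjusted p = 0.0025). Among the lower genes, DTX21, an exporter of the MATE family, had 51.6, 40.5 and 34.7 CPM at 25 DPA, against 147, 170.2 and 194 CPM at 20 DPA (log2 fold change -2.01 ± 0.18 (SE), adjusted p = 0.00065). MON1, which acts in fusion of vesicles with the vacuole, had 2.95, 3.85 and 3.37 CPM at 25 DPA, against 6.25, 21.2 and 20.7 CPM at 20 DPA. Replicate 1 at 20 DPA was well below the other two 20 DPA libraries and above all 25 DPA libraries (log2 fold change -2.24 ± 0.45 (SE), adjusted p = 0.012). TRAPPC4, a subunit of a vesicle tethering complex, had 0.0995, 0.343 and 0.139 CPM at 25 DPA, against 2.1, 2.81 and 4.02 CPM at 20 DPA (log2 fold change -3.94 ± 0.52 (SE), adjusted p = 0.0025). It was one of 2 lower genes among 22 tested for secretory traffic, of which none was higher in edgeR, with 7 higher at an unadjusted p under 0.05 and none called higher by DESeq2 or limma. The share lower, 9.09%, lies near the 7.93% over all genes tested, of which 6.2% were higher.

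Chaperone genes gave 0 higher and 3 lower of 19, with a median log2 fold change of -0.07 (edgeR; 1 was higher at an unadjusted p under 0.05, and none in DESeq2 or limma). The shares were 0% and 15.79%, against 6.2% and 7.93% of all genes tested. The summed level of the chaperone list was 245 to 304 CPM at 25 DPA, against 519 to 742 CPM at 20 DPA. Most of that fall lay in BAG6 and HSP83A, and 16 of the 19 members were not called. HSP18.2 (Gbar_D08G018180), a small heat shock protein, had 0.299, 0.229 and 0.417 CPM at 25 DPA, against 8.38, 8.34 and 3.96 CPM at 20 DPA. It was 21.9-fold lower at a low level (log2 fold change -4.43 ± 0.41 (SE), adjusted p = 0.00069). BAG6 (Gbar_D08G014860), a co-chaperone induced by heat and calcium, had 84.7, 103 and 75.8 CPM at 25 DPA, against 266, 448 and 361 CPM at 20 DPA and was 4.08-fold lower (log2 fold change -2.03 ± 0.22 (SE), adjusted p = 0.0012). HSP83A, a chaperone of the HSP90 family, had 58.1, 89.5 and 58.2 CPM at 25 DPA, against 136, 163 and 130.5 CPM at 20 DPA (log2 fold change -1.06 ± 0.20 (SE), adjusted p = 0.0097). Its log2 fold change was -0.93 without replicate 2 at 20 DPA, -0.95 without replicate 1 at 25 DPA and -0.95 without replicate 3 at 25 DPA, which is under the threshold.

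Markers of other tissues were detected at summed levels under those of the cuticle list, but not under every list set for fiber. The lists set for fiber itself were the cuticle list, the secondary wall regulators and the expansins and xyloglucan enzymes. The regulators had a summed level of 396 to 529 CPM at 25 DPA against 47.4 to 82.3 CPM at 20 DPA, a rise that lay mainly in MYB86. The expansin list had 33.5 to 63.6 CPM at 25 DPA against 15.4 to 16.6 CPM at 20 DPA. At 20 DPA the photosynthesis list (20.1 to 25.5 CPM) and the cell cycle and histone list (71.4 to 89.2 CPM) lay above the expansin list. The lists differ in size, so their sums do not measure the part of a tissue. The photosynthesis list had 1 higher and 1 lower of 5 tested, and 1 higher and 0 lower without replicate 2 at 25 DPA. With all 6 libraries the shares were 20% each way, against 6.2% and 7.93% of all genes tested. In sum the list had 17 to 23.7 CPM at 25 DPA against 20.1 to 25.5 CPM at 20 DPA. Within it PSBW, a small subunit of photosystem II, had 5.17, 13.8 and 4.62 CPM at 25 DPA, against 1.85, 1.59 and 1.7 CPM at 20 DPA (log2 fold change 2.19 ± 0.44 (SE), adjusted p = 0.013), with an adjusted p of 0.053 without replicate 2 at 20 DPA and of 0.0501 without replicate 3 at 20 DPA. LIL3.2, a light-harvesting-like protein, had 9.59, 5.79 and 9.03 CPM at 25 DPA, against 16.7, 15.6 and 20.9 CPM at 20 DPA (log2 fold change -1.12 ± 0.22 (SE), adjusted p = 0.012), and its call was lost without replicate 3 at 20 DPA (adjusted p = 0.0552) or replicate 2 at 25 DPA (log2 fold change -0.93).

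The seed and embryo list had 1 higher and 1 lower of 3 tested, 33.33% each way against 6.2% and 7.93% of all genes tested. Its summed level was 3.85 to 6.93 CPM at 25 DPA against 3.35 to 4.62 CPM at 20 DPA. Of its 8 members in the files, 4 had no read in any of the 6 libraries. AGL15, a MADS-box protein of embryos, had 6.24, 3.39 and 3.96 CPM at 25 DPA, against 1.19, 1.01 and 1.73 CPM at 20 DPA (log2 fold change 1.79 ± 0.33 (SE), adjusted p = 0.0093). A basic 7S globulin gene, a seed protein (Gbar_D08G020900), had no read at 25 DPA, against 1.82, 2.14 and 2.54 CPM at 20 DPA, at least 61.5-fold lower with a floor of 3 counts over the stage. The vascular list had 1 lower of 3, PXL1, a receptor kinase, with 0.232, 0.114 and 0 CPM at 25 DPA, against 1.91, 2.58 and 3.38 CPM at 20 DPA (log2 fold change -4.44 ± 0.75 (SE), adjusted p = 0.0064), and its summed level was 1.75 to 3.06 CPM at 25 DPA against 5.27 to 6.59 CPM at 20 DPA. The shares of the vascular list were 0% higher and 33.33% lower. Cell cycle and histone genes gave 1 higher and 0 lower of 17 in edgeR (5 lower at an unadjusted p under 0.05). The share higher, 5.88%, lies near the 6.2% over all genes tested, of which 7.93% were lower. DESeq2 called 1 lower of 24 and limma on log2(FPKM + 0.1) 3 lower of 11, and without replicate 2 at 25 DPA edgeR called 0 of 18 in either direction. The list came to 61.6 to 71.5 CPM in sum at 25 DPA and 71.4 to 89.2 CPM at 20 DPA. The part of other tissues in the results above was not tested.

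The study's own list of 55 genes, which it chose on these samples so that its direction is not independent evidence, had 23 genes higher and 0 lower, with a median log2 fold change of 0.76 (edgeR). The shares were 41.82% and 0%, against 6.2% and 7.93% of all genes tested. Without replicate 2 at 25 DPA 21 were higher. Among those described above, TUBB1, TUBB5, the WDL2 gene on D11, TBL43, the first HMA5 gene, CML17, At2g40270, SAPK3, SAUR32, ATG8F, LOL1, PARB, Aox1, PSBW, At1g54790 and Scyl2 belong to it and were called, while SP1L2, the capping protein, CCR1 and SUS2 belong to it and were not.

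Some of the largest called changes were in genes that have no name or description in the tables used. A08G005520 is one of them and is among the 10 genes with the highest FPKM at 25 DPA. It had 6551, 7917 and 7265 CPM at 25 DPA, against 237, 190.5 and 81.8 CPM at 20 DPA, 42.7-fold higher in the means (log2 fold change 5.42 ± 0.43 (SE), adjusted p = 0.00043). D02G003900 had 145, 215 and 205 CPM at 25 DPA and no read at 20 DPA, at least 6560-fold higher with the same floor. newGene_17497, a gene of the study's assembly, had 71.2, 77.2 and 288 CPM at 25 DPA and no read at 20 DPA, at least 5136-fold higher. In that gene replicate 3 was far above the other two. D08G005730 had 683, 461 and 1029 CPM at 25 DPA, against 0.138, 0.174 and 0 CPM at 20 DPA (log2 fold change 12.71 ± 0.71 (SE), adjusted p = 0.00017). In the other direction D02G001970, newGene_9143 and A12G005480 had no read at 25 DPA. At 20 DPA D02G001970 had 5.86, 6.63 and 12.9 CPM, newGene_9143 5.2, 8.6 and 9.1 CPM and A12G005480 2.79, 6.17 and 7.51 CPM. D02G001970 was at least 239-fold, newGene_9143 at least 216-fold and A12G005480 at least 155-fold lower.

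Of the other genes with the highest FPKM at 25 DPA, D05G016290 had 14660, 18020 and 13620 CPM at 25 DPA, against 10030, 12980 and 11960 CPM at 20 DPA, with separate ranges and no call (log2 fold change 0.41 ± 0.19 (SE), adjusted p = 0.16). D10G012000 had 3348, 8509 and 6209 CPM at 25 DPA, against 2071, 2643 and 2896 CPM at 20 DPA and was called higher (log2 fold change 1.25 ± 0.33 (SE), adjusted p = 0.034), a call lost when any library but replicate 1 at 25 DPA was left out, with adjusted p = 0.111, 0.0923 and 0.0852 without 20 DPA replicates 1, 2 and 3 and adjusted p = 0.0602 and 0.0827 without 25 DPA replicates 2 and 3. D09G011250 had 6379, 9304 and 6484 CPM at 25 DPA, against 3191, 3947 and 3869 CPM at 20 DPA (log2 fold change 1.01 ± 0.20 (SE), adjusted p = 0.012), and A05G031590 had 669, 1015 and 916 CPM at 25 DPA, against 368, 404 and 509.7 CPM at 20 DPA (log2 fold change 1.02 ± 0.20 (SE), adjusted p = 0.011). Without replicate 2 at 25 DPA the log2 fold change of D09G011250 was 0.81 and that of A05G031590 0.89, and without replicate 1 at 20 DPA they were 0.92 and 0.93. For D09G011250 the adjusted p was 0.0518 without replicate 3 at 20 DPA, and for A05G031590 the log2 fold change was 0.98 without replicate 3 at 25 DPA.

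The step from 20 to 25 DPA can be placed in development by the deposited FPKM of the 8 stages. The genes were called on the 20 and 25 DPA libraries, which also enter the stage of the highest mean, so these levels are a description. By construction no higher gene can peak at 20 DPA and no lower gene at 25 DPA. For the same reason the share of higher genes at 25 DPA and that of lower genes at 20 DPA are not independent of the calls. Of the 2824 genes higher at 25 DPA, 1007 had their highest mean FPKM at 25 DPA, 795 at 30 DPA, 516 at 35 DPA and 412 in the 0 DPA ovules. These are 35.66%, 28.15%, 18.27% and 14.59% of the higher genes, against 6.46%, 5.02%, 15.92% and 41.69% of all genes tested. Of the 3613 lower genes, 1173 were highest in the ovules, and the stages 5, 10, 15 and 20 DPA held the highest mean of 536, 654, 654 and 444. The ovules thus held 32.47% of the lower genes, below the 41.69% of all genes tested, while the next 4 stages held 14.84%, 18.1%, 18.1% and 12.29% of the lower genes, against 11.37%, 7.61%, 6.28% and 5.65% of all. Over the higher genes the median log2(FPKM + 1) stood at 1.1 at 15 DPA and 1.45 at 20 DPA, then at 2.83, 3.02 and 2.65 at the next 3 stages. Over the lower genes the median values of the same 5 stages were 2.17, 1.94, 0.68, 1.01 and 0.93.

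MYB86 had its highest mean at 25 DPA. At 15 DPA it had 0.00927 ± 0.016 FPKM, at 20 DPA 14.5 ± 6.06 FPKM, at 25 DPA 166 ± 23.7 FPKM and at 30 DPA 62.9 ± 3.02 FPKM (mean ± SD, n = 3). TBL43 was likewise highest at 25 DPA, where it had 104 ± 6.7 FPKM, with 4.59 ± 1.96 FPKM before it and 44.9 ± 2.87 FPKM after it. KNAT7 had 14.9 ± 5.15 FPKM at 20 DPA, 30.8 ± 1.51 FPKM at 25 DPA and a higher mean at 35 DPA, 44.8 ± 14.1 FPKM, within its spread. The tubulin genes had their highest means at different stages. The beta-9 tubulin gene was highest at 20 DPA, at 909 ± 201 FPKM, and TUBB1 at 25 DPA, at 1258 ± 422 FPKM, down to 36.1 ± 16.4 at 35 DPA. For HTH the mean was 82 ± 9.02 FPKM at 15 DPA, 40.3 ± 6.28 FPKM at 20 DPA, 5.18 ± 2.74 FPKM at 25 DPA and 0.777 ± 0.571 FPKM at 35 DPA, lower at each of these stages. A08G005520, with 0.351 ± 0.608 FPKM at 15 DPA, reached 133 ± 65.2 FPKM at 20 DPA, 4574 ± 311 FPKM at 25 DPA and 5440 ± 557 FPKM at 30 DPA.

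**Figure D4:**
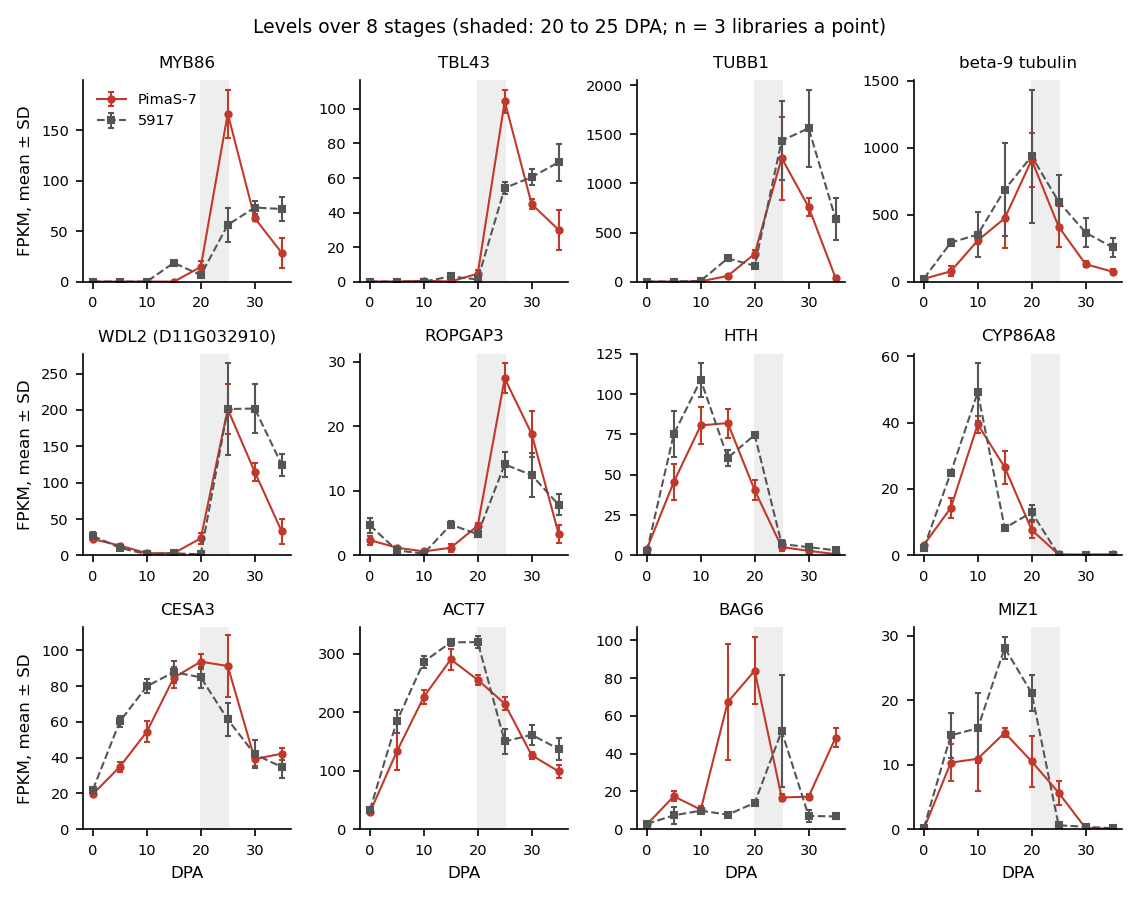
Deposited FPKM of 12 genes at the 8 stages, in DPA, in PimaS-7 (red circles, solid lines) and 5917 (gray squares, dashed lines), as mean ± SD of 3 libraries; the 20 to 25 DPA window is shaded. In PimaS-7 MYB86, TBL43 and ROPGAP3 have their highest mean at 25 DPA, and CYP86A8 has at most 0.311 and HTH at most 5.18 FPKM from 25 DPA on.

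The same step was measured in 5917 with 6 other libraries. There 6919 genes were higher (14.9%) and 5025 lower (10.8%) of 46493 tested. Of the PimaS-7 calls, 1787 higher genes were also called higher in 5917, which is 63.28% of the PimaS-7 list and 25.83% of the 5917 list, and 28 were called lower. Of the lower genes 1707 were shared, 47.25% of the PimaS-7 list and 33.97% of the 5917 list, and 213 were called higher in 5917. MYB86 in 5917 had 67.6, 172 and 90.9 CPM at 25 DPA, against 9.81, 10.5 and 15 CPM at 20 DPA (log2 fold change 3.22 ± 0.39 (SE), adjusted p = 0.00087), and TBL43 had 80.7, 118 and 87.3 CPM at 25 DPA, against 2.1, 2.17 and 1.85 CPM at 20 DPA (log2 fold change 5.54 ± 0.25 (SE), adjusted p = 5.7e-05). For neither was the difference between the cultivars' steps called (MYB86 0.61 ± 0.53 (SE), adjusted p = 0.46; TBL43 -0.70 ± 0.36 (SE), adjusted p = 0.21).

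The difference between the steps was tested as an interaction over the 12 libraries. It was called above 0 for 2553 genes (5.17%), which changed more upward or less downward in PimaS-7, and below 0 for 4194 (8.49%), of 49415 tested. This total of 6747 depended on single libraries. It was 3558 without PimaS-7 20 DPA replicate 1, 4006 without 5917 20 DPA replicate 1 and 3895 without 5917 20 DPA replicate 3. Without 5917 25 DPA replicate 2 it was 9997, of which 4068 were above 0. The number below 0 was 2751 without 5917 25 DPA replicate 3 and 2768 without PimaS-7 25 DPA replicate 1.

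Some named genes moved in opposite directions. BAG6, which fell in PimaS-7, had 346, 118 and 234 CPM at 25 DPA, against 71, 59.5 and 64.3 CPM at 20 DPA in 5917 (log2 fold change 1.84 ± 0.38 (SE), adjusted p = 0.0085), a difference between steps of -3.88 ± 0.47 (SE), adjusted p = 0.0011. HSP18.2 had 51.7, 8.07 and 1.62 CPM at 25 DPA, against 1.28, 0.885 and 0.805 CPM at 20 DPA in 5917, where replicate 1 at 25 DPA was far above the other two (log2 fold change 4.37 ± 1.14 (SE), adjusted p = 0.023), with a difference of -8.81 ± 1.43 (SE), adjusted p = 0.0037. PAE7 had 105, 39.4 and 68.1 CPM at 25 DPA, against 19.4, 28.4 and 12.7 CPM at 20 DPA in 5917 (log2 fold change 1.81 ± 0.42 (SE), adjusted p = 0.014), a difference of -3.07 ± 0.57 (SE), adjusted p = 0.0064. These 3 differences were called without each library in turn.

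Others differed in size. The WDL2 gene on D11 had 275, 651 and 290.5 CPM at 25 DPA, against 2.25, 3 and 3.07 CPM at 20 DPA in 5917 (log2 fold change 7.19 ± 0.48 (SE), adjusted p = 8.3e-05). Its levels at 25 DPA overlapped between the cultivars, while at 20 DPA PimaS-7 already had 26.7 to 54.2 CPM, and the steps differed by -3.79 ± 0.52 (SE), adjusted p = 0.0017. CER26L had 5.86, 3.84 and 2.15 CPM at 25 DPA, against 111, 99 and 114 CPM at 20 DPA in 5917 (log2 fold change -4.77 ± 0.39 (SE), adjusted p = 0.00015), a fall larger than in PimaS-7 by a difference of 3.12 ± 0.45 (SE), adjusted p = 0.0021. PAS2 fell in 5917 with 16.3, 17.3 and 14.7 CPM at 25 DPA, against 69.7, 67.3 and 56.8 CPM at 20 DPA (log2 fold change -2.005 ± 0.18 (SE), adjusted p = 0.00025). Its steps differed by 1.18 ± 0.21 (SE), adjusted p = 0.0054. MIZ1, named for a protein of root hydrotropism in Arabidopsis, had 6.63, 11.7 and 5.87 CPM at 25 DPA, against 9.18, 9.59 and 17.2 CPM at 20 DPA in PimaS-7 with overlapping ranges (log2 fold change -0.57 ± 0.35 (SE), adjusted p = 0.28). In 5917 it had 1.11, 0.588 and 0.581 CPM at 25 DPA, against 31.2, 21.8 and 27.3 CPM at 20 DPA (log2 fold change -5.12 ± 0.33 (SE), adjusted p = 7.4e-05), with a difference of 4.54 ± 0.51 (SE), adjusted p = 0.00072. The levels of MIZ1 over the stages were 5.65 ± 1.88 FPKM at 25 DPA and 0.14 ± 0.0348 FPKM at 30 DPA in PimaS-7, against 0.59 ± 0.297 and 0.359 ± 0.268 FPKM in 5917.

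**Figure D5:**
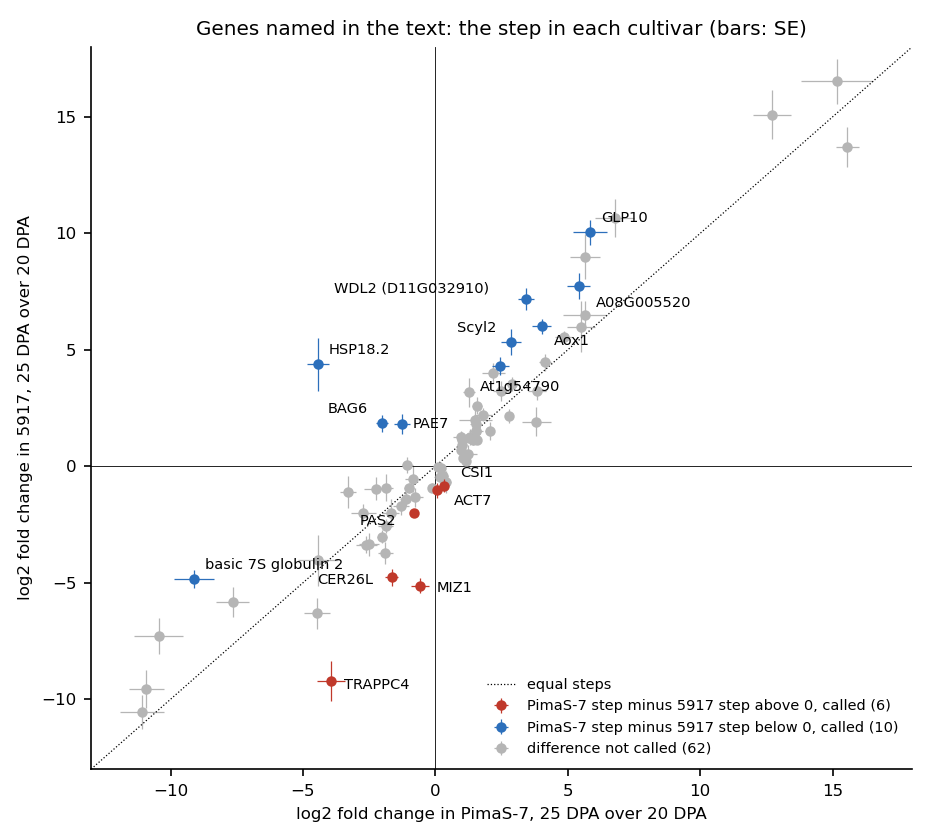
Log2 fold change, 25 over 20 DPA, in PimaS-7 (x axis) against that in 5917 (y axis) for 78 genes named in the text, with SE bars. All 78 were tested in both cultivars, and GPAT3 and the WDL2 gene on D08 are not plotted. The dotted line marks equal steps. The difference between steps was called above 0 for 6 genes (red) and below 0 for 10 (blue), and HSP18.2, BAG6 and PAE7 lie in the quadrant lower in PimaS-7 and higher in 5917; fitted values of genes without a read at 1 stage depend on the prior count.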

How the data were processed

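Total RNA of PimaS-7 and 5917 ovules (0 DPA) and fibers was sequenced in 3 replicates at 8 stages. After trimming of adapters and poor reads, the authors used HISAT2 for alignment to the Gossypium barbadense 3-79 HAU v2.0 genome and StringTie for assembly and quantification. Whether StringTie also gave the deposited counts, and whether strand was used, is not given in the sources used here, so reads of overlapping genes and of A and D copies may be shared. The deposited gene counts are unnormalized and held 69337 genes. The deposited FPKM values were scaled by the authors for gene length and depth.

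Genes with low counts were removed with filterByExpr (minimum count 10), counts were normalized by TMM and tested with edgeR 4.0.16 in R 4.3.3 on the 6 PimaS-7 libraries, 25 over 20 DPA, by the quasi-likelihood test with Benjamini-Hochberg adjustment. Levels are TMM-normalized CPM. The SE of an edgeR log2 fold change is its size divided by the square root of the quasi-likelihood F, and was not fitted separately. The same fit was made for the 6 libraries of 5917, and the interaction was fitted on all 12. Alternatives were DESeq2 1.42.0 and its size factors, limma 3.58.1 on log2(FPKM + 1) and log2(FPKM + 0.1) for 38254 genes with FPKM above 0.5 in at least 3 libraries, no filter, the replicate number as a block, a fit of all 48 libraries and leaving out each library. After seeing the data, list counts without replicate 2 at 25 DPA, and alternatives for the 5917 fit and the interactions of named genes, were added. The edgeR script was tested on simulated counts. Exact permutation tests used scipy 1.17.1.

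The text names members of 24 lists, the study's 5 candidates and list of 55, up to 15 named genes with the largest non-overlapping changes in each direction (mean of at least 5 CPM in the higher stage), 3 such genes of any annotation in each direction, the 10 genes with the highest mean FPKM at 25 DPA, and genes whose interaction was called; of these, a part is printed, chosen after their values were seen. Members and lists were chosen with earlier results of these data known. Bounds for genes without reads use a floor of 3 counts over the stage, and counting intervals are 95%.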

Additional observations from a re-analysis of the deposited data

Results flagged for a closer look

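The results below are those whose 20 to 25 DPA step differed between PimaS-7 and 5917 by the interaction test over 12 libraries, with edgeR's quasi-likelihood test and Benjamini-Hochberg adjustment. Values are the PimaS-7 step minus the 5917 step on the log2 scale. Over all genes the step differed for 6747. The differences were not weighed against technical explanations.

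Among cuticle genes the difference was 3.12 for CER26L and 1.18 for PAS2, and both were lower in 5917 by more than in PimaS-7. MIZ1, at 4.54, was called lower at 25 DPA in 5917 and not called in PimaS-7. BAG6 at -3.88, HSP18.2 at -8.81 and PAE7 at -3.07 moved in opposite directions in the cultivars. WDL2 on D11, at -3.79, was called higher in both and by more in 5917. For TRAPPC4 the value was 5.22, but no read was counted in 5917 at 25 DPA, so that it depends on the prior count. These 8 differences were called without each of the 12 libraries in turn.

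The other differences were lost when single libraries were left out. GLP10, at -4.19, was lost without PimaS-7 20 DPA replicate 1 (-3.28, adjusted p = 0.0656, edgeR). Aox1, at -1.997, was lost without that library (adjusted p = 0.0568) or 5917 20 DPA replicate 3 (adjusted p = 0.0612). The difference of basic 7S globulin 2, at -4.31, has no read in PimaS-7 at 25 DPA behind it and was lost without PimaS-7 25 DPA replicate 1 (adjusted p = 0.0525). A08G005520, at -2.32, was lost without PimaS-7 20 DPA replicate 1 (adjusted p = 0.0537) or 5917 20 DPA replicate 3 (adjusted p = 0.0518). CSI1 at 1.14, ACT7 at 1.08, At1g54790 at -1.86 and Scyl2 at -2.48 were each lost without several of the libraries.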

How the results depend on the processing

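With limma on log2(FPKM + 1) 3903 genes were called for PimaS-7 at 25 against 20 DPA, 1259 of them higher, and with a pseudocount of 0.1 the number higher was 1750. DESeq2 gave 3627 higher and 4084 lower, size factors 2987 and 3492, no filter 2776 and 3414, and a fit of all 48 libraries 3674 and 4381. Leaving out single libraries gave 4588 to 6830 genes, 2189 to 3158 higher and 2399 to 3672 lower. For the interaction it gave 3558 to 9997 genes, 1493 to 4068 above 0 and 2065 to 5929 below 0. In 5917 it gave 8594 to 13517 genes. The causes were not tested.

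The replicate numbers are shared by the stages, but the deviations of same-numbered libraries from their group means correlated at -0.03, 0.05 and -0.03, so they were not taken as pairs. With the replicate number as a block 5057 genes were called (2337 higher, 2720 lower), and the interaction 5221 (2230 above 0, 2991 below 0). The replicate block ended the calls of PAE7 (-1.20, adjusted p = 0.081) and D09G011250 (0.99) and that of the interaction of At1g54790 (-1.77, adjusted p = 0.061), and gave SUS2 a call (1.33, adjusted p = 0.04, edgeR).

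The alternatives were followed for 81 of the named genes, without GPAT3 and the WDL2 gene on D08. Of the 81 genes 65 were called, 45 of these under all 13 alternatives and 53 without each library in turn. No called gene among the 81 changed sign. The call was lost for 15 with limma on log2(FPKM + 1), 9 with the pseudocount of 0.1 and 1 with DESeq2. The log2 fold changes of genes not called turned negative with limma at the pseudocounts of 1 and 0.1 for CCR1 (-0.10 and -0.11), CESA3 (-0.052 and -0.0526), CSI1 (-0.00423 and -0.00439), ACT7 (-0.25 and -0.25), capping protein alpha (-0.13 and -0.13) and the D08 copy of RPT2A (-0.21 and -0.22). Without replicate 2 at 25 DPA they were -0.00235 for ACT7 and -0.11 for capping protein alpha, and without single libraries the values of these genes reached 0.126 and 0.314.

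With totals of about equal size, depth limits mainly the genes with few reads: at 0 reads in a stage only a lower bound of the fold can be given, and 76 higher and 137 lower genes are of that kind. The intervals cover counting error only. The 3 libraries a stage cannot give an exact permutation p under 0.1.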

Other observations

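The counts of some gene groups were not given in the comparison above. Of 14 cytosolic ribosomal protein genes none was called in either direction by edgeR, DESeq2 or limma, with a median log2 fold change of 0.13 and 3 members higher at an unadjusted p under 0.05. Their summed level was 1061 to 1233 CPM at 25 DPA, against 824 to 913 CPM at 20 DPA. On FPKM, where 5 members were lower and 1 higher at an unadjusted p under 0.05, the direction was not kept. Wall glycoproteins and wall receptors gave 1 higher and 1 lower of 7, 14.29% each way against 6.2% and 7.93% of all genes tested. Without replicate 2 at 25 DPA they gave 1 higher and 2 lower of 8.

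The coexpression modules that the study built on these 48 libraries took unequal shares of the calls, and since they were built on the same samples this is a description. Over all genes tested 6.2% were higher and 7.93% lower. In the brown module 717 of 1276 tested genes were higher (56.19%) and 105 lower (8.23%) at 25 DPA (median log2 fold change 1.27). The pink module had 108 higher (17.53%) and 7 lower (1.14%) of 616. In the purple module 6 were higher (0.69%) and 233 lower (26.94%) of 865. The green module had 55 higher (10.7%) and 24 lower (4.67%) of 514, and the yellow module 83 (11.79%) and 25 (3.55%) of 704. In the black module 1 was higher and 1 lower of 86, 1.16% each way. In the red module none of 41 was higher and 26 were lower (63.41%, median log2 fold change -1.42), while in 5917 8 of them were higher and 2 lower. The turquoise module had 11 higher (5.73%) and 5 lower (2.6%) of 192 in PimaS-7, while in 5917 93 were higher and none was lower. In 5917 14.9% of all genes tested were higher and 10.8% lower. The direction of the modules was not tested against other genes.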
